A study of Mus musculus with 6 samples.

Results

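The genes described here are 10 genes of intraepithelial lymphocytes, the T cells that live between the epithelial cells of the gut and are collected with them: *Cd3e*, *Cd3g*, *Cd8a*, *Cd7*, *Itgae*, *Gzma*, *Gzmb*, *Nkg7*, *Prf1* and *Ptprc*. They were taken by symbol from a table of 22611 genes. Duodenal epithelium of 3 WT mice and 3 *Esrra*-/- littermates gave 1 RNA-seq library per mouse, and the question put to these genes is whether their level in the epithelial fraction differed between the genotypes. *Esrra* encodes ERRα, an orphan nuclear receptor that drives genes of mitochondrial respiration. Both groups were fed a high-fat diet, mice of both sexes were used, and their age is not given in the sources used here. The *Esrra* deletion is germline, so the lymphocytes of an *Esrra*-/- mouse carried it as well as its enterocytes. The epithelium was released with EDTA and mechanical force and was not sorted, so lymphocytes entered each library in whatever proportion they came off with the epithelium.

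Most intraepithelial lymphocytes of the small intestine carry the T cell receptor with its CD3 chains and the CD8α chain, and hold cytotoxic granules ready for use. Integrin αE (CD103), encoded by *Itgae*, pairs with integrin β7 and binds E-cadherin on epithelial cells, which keeps these cells in the epithelium. Part of the population carries CD8α as a homodimer and has little CD5 or Thy-1, while conventional CD8 T cells carry the CD8α and CD8β chains together.

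In every library the values were those of an epithelial preparation with T cells in it. FPKM corrects the fragments assigned to a gene for transcript length and for library size, so levels can be set side by side between genes. The epithelial gene *Epcam* ranged from 565 to 776 FPKM and *Vil1*, which encodes villin, from 673 to 1204 FPKM, against 22.5 to 71.5 FPKM for *Cd7* and 9.42 to 23.75 FPKM for *Cd3g*. *Cd4* lay between 0.167 and 0.510 FPKM and *Foxp3*, the factor of regulatory T cells, between 0.0156 and 0.130 FPKM. The B cell gene *Ms4a1* stayed at or below 0.462 FPKM, but *Igkc*, the antibody κ constant gene of plasma cells, ranged from 71.4 to 574 FPKM and exceeded *Cd3g* in every library. *Ncr1*, a receptor of natural killer cells, was at or below 0.0488 FPKM. In the list of natural killer receptors, 6 of 20 genes were above a mean of 1 FPKM. Among them were the adaptor genes *Tyrobp* (4.03 to 12.5 FPKM) and *Fcer1g* (7.81 to 21.9 FPKM). The neutrophil gene *S100a8* was listed at 0 in all 6 libraries. Its list, of macrophage, dendritic cell and granulocyte genes, nevertheless summed to 22.5 to 59.6 FPKM, with 9 of 27 genes above a mean of 1 FPKM. *Col1a1* of fibroblasts and *Cdh5* of endothelium stayed at or below 0.230 FPKM. The list of mesenchymal and endothelial genes summed to 9.29 to 16.0 FPKM, with 3 of its 20 genes, *Tagln*, *Vim* and *Lyve1*, above a mean of 1 FPKM. The constant genes of the γδ T cell receptor were not analysed here. *Esrra* itself measured 49.4, 73.5 and 103.6 FPKM in the WT libraries, in order of replicate, and 10.4, 9.42 and 8.72 FPKM in the *Esrra*-/- libraries, a log2 fold change of −2.92 (SE 0.26; limma, adjusted p = 0.0215 over 10596 genes). The deleted gene thus matched the labels in all 6 libraries. Its fold change ran from −3.19 to −2.66 with 1 library left out, though the adjusted p then rose as high as 0.185. Y-linked transcripts, summed over 4 genes, were at 27.3 to 46.7 FPKM in 4 libraries and at 0.0487 FPKM in WT replicate 3 and 0.222 FPKM in *Esrra*-/- replicate 3.

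The 10 genes are spread over 8 chromosomes, with *Cd3e* (mm9 chr9:44806826-44817673) and *Cd3g* (chr9:44777655-44788514) in 1 cluster around *Cd3d* (chr9:44789876-44795135). The others are *Cd8a* (chr6:71323421-71329165), *Cd7* (chr11:120898061-120900732), *Itgae* (chr11:72904085-72960948), *Gzma* (chr13:113884033-113891187), *Gzmb* (chr14:56877693-56881097), *Nkg7* (chr7:50692443-50693616), *Prf1* (chr10:60760584-60767011) and *Ptprc* (chr1:139959438-140071882). Their promoters were searched for short motifs of lymphocyte transcription factors. Whether such motifs bear on the common movement of these genes over the libraries, described further on, was not tested. RefSeq promoter windows from its GRCm38.p6 table, cut to the 250 bases before the annotated start, were available for 8 of the 10 genes, and each was found at 1 place in mm9. *Cd7* and *Itgae* had no entry. The letters searched on both strands were TGTGGT for RUNX factors, AGGAAG for ETS factors and AAGGTCA for the estrogen-related receptors. None of the 3 motifs overlaps another in the windows printed here.

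The RUNX letters were present in 4 of the 8 windows, those of the cytotoxic genes *Gzma* (1 match), *Gzmb* (2), *Nkg7* (1) and *Prf1* (1), and in 14% of 32851 promoter windows of the same length. ETS letters were found in *Cd3e* (2 matches), *Nkg7* (1), *Prf1* (2) and *Ptprc* (3), and in 29.5% of all windows. AAGGTCA was present in 0 of the 8 windows and in 4.08% of all windows. A match is a description of the letters, not of a bound site. The windows of both CD3 genes and of the 3 granule proteins are shown as examples with matches and, for *Cd3g*, without. Not shown are *Nkg7* and *Ptprc*, which also carry matches, and *Cd8a*, which like *Cd3g* carries 0. Each reads 5′ to 3′ on the strand of its gene, at *Cd3e* chr9:44817695-44817944 (−), *Cd3g* chr9:44788515-44788764 (−), *Gzma* chr13:113891190-113891439 (−), *Gzmb* chr14:56881172-56881421 (−) and *Prf1* chr10:60760334-60760583 (+) in mm9. Capitals mark the RUNX matches in *Gzma* and *Gzmb*, the ETS matches in *Cd3e* and both kinds in *Prf1*, where a match on the other strand appears as ACCACA or CTTCCT.
Cd3e: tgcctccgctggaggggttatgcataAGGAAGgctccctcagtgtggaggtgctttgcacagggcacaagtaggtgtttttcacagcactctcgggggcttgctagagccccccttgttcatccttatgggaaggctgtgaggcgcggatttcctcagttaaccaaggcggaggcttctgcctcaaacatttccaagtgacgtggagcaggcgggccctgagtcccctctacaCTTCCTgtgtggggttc
Cd3g: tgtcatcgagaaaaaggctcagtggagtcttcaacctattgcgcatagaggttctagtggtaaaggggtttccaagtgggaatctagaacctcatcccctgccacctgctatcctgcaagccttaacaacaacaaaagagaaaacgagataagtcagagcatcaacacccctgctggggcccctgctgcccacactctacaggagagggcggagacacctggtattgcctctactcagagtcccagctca
Gzma: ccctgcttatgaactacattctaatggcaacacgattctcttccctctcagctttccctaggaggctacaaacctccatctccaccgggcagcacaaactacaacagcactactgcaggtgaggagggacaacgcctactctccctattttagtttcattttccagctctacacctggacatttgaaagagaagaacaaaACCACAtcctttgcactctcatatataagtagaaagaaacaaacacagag
Gzmb: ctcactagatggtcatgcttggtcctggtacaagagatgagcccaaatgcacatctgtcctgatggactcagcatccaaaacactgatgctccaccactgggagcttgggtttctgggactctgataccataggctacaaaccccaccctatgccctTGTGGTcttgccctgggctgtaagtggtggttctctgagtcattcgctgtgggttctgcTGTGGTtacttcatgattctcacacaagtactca
Prf1: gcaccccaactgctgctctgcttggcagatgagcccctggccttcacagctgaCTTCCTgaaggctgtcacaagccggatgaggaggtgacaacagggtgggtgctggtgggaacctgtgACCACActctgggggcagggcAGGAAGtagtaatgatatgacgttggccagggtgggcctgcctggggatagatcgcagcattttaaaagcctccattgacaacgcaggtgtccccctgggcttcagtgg

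The T cell receptor genes come first. *Cd3e*, which encodes the ε chain that the receptor needs for assembly and signalling, measured 3.96, 9.99 and 4.79 FPKM in WT and 4.17, 9.29 and 9.32 FPKM in *Esrra*-/-, in order of replicate as throughout. Replicate 2 of WT and replicates 2 and 3 of *Esrra*-/- stood near one level, the remaining 3 libraries near a lower one, and the genotypes overlapped. *Cd3g*, the γ chain of the same complex, measured 10.3, 23.75 and 12.1 FPKM in WT and 9.42, 20.6 and 19.9 FPKM in *Esrra*-/-. The same 3 libraries were high. *Cd3g* stood 2.14 to 2.60 times above *Cd3e* per length of transcript in every library, so the pair kept nearly one proportion while both changed by about the same factor, 2.53 times for *Cd3e* and 2.52 times for *Cd3g* between the highest and lowest library. *Cd8a*, the CD8α chain that binds MHC class I and the thymic leukaemia antigen, measured 5.89, 8.50 and 5.12 FPKM in WT and 5.09, 9.92 and 8.61 FPKM in *Esrra*-/-. Its spread of 1.95 times was the narrowest of the 10 genes. *Cd7*, a receptor of T and natural killer cells that is abundant on intraepithelial lymphocytes, measured 32.6, 56.7 and 35.8 FPKM in WT and 22.5, 49.4 and 71.5 FPKM in *Esrra*-/-. Both its lowest and its highest value were in *Esrra*-/- libraries, 3.18 times apart, so that the WT values lay inside the *Esrra*-/- range.

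*Itgae*, the αE chain of the integrin that holds the cells at the epithelium, measured 4.24, 8.51 and 3.27 FPKM in WT and 3.08, 8.10 and 4.54 FPKM in *Esrra*-/-. Only replicate 2 of each genotype was high for *Itgae*, and *Esrra*-/- replicate 3 lay close to WT replicate 1. *Ptprc*, the tyrosine phosphatase CD45 found on all leukocytes, followed *Itgae* more than the CD3 genes, with 2.84, 5.10 and 2.13 FPKM in WT and 1.98, 4.37 and 2.46 FPKM in *Esrra*-/-. Replicate 2 of each genotype stood above the other 4 libraries, and *Esrra*-/- replicate 3 was below WT replicate 1.

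Among the cytotoxic genes, *Gzma*, a tryptase of the granules, was the most abundant of the 10, with 82.2, 118.4 and 73.5 FPKM in WT and 58.7, 96.5 and 160.1 FPKM in *Esrra*-/-. The *Esrra*-/- libraries held both extremes, 2.73 times apart. *Gzmb*, the granule protease that cleaves caspases in target cells, measured 15.9, 36.5 and 11.9 FPKM in WT and 14.4, 34.1 and 36.8 FPKM in *Esrra*-/-. WT replicate 2 and *Esrra*-/- replicates 2 and 3 were near one high level and the others well below it, with 3.10 times between the extremes. *Nkg7*, a membrane protein of the granules needed for their release, measured 7.89, 15.2 and 9.74 FPKM in WT and 8.67, 14.9 and 17.4 FPKM in *Esrra*-/-, with the same 3 libraries high. *Prf1*, the pore-forming perforin, was low throughout, at 0.303, 0.447 and 0.330 FPKM in WT and 0.233, 1.07 and 0.400 FPKM in *Esrra*-/-. *Esrra*-/- replicate 2 alone exceeded 1 FPKM, and the mean of 0.464 FPKM was under the minimum of 1 FPKM set for testing, so 9 of the 10 genes were tested.

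**Figure D1:**
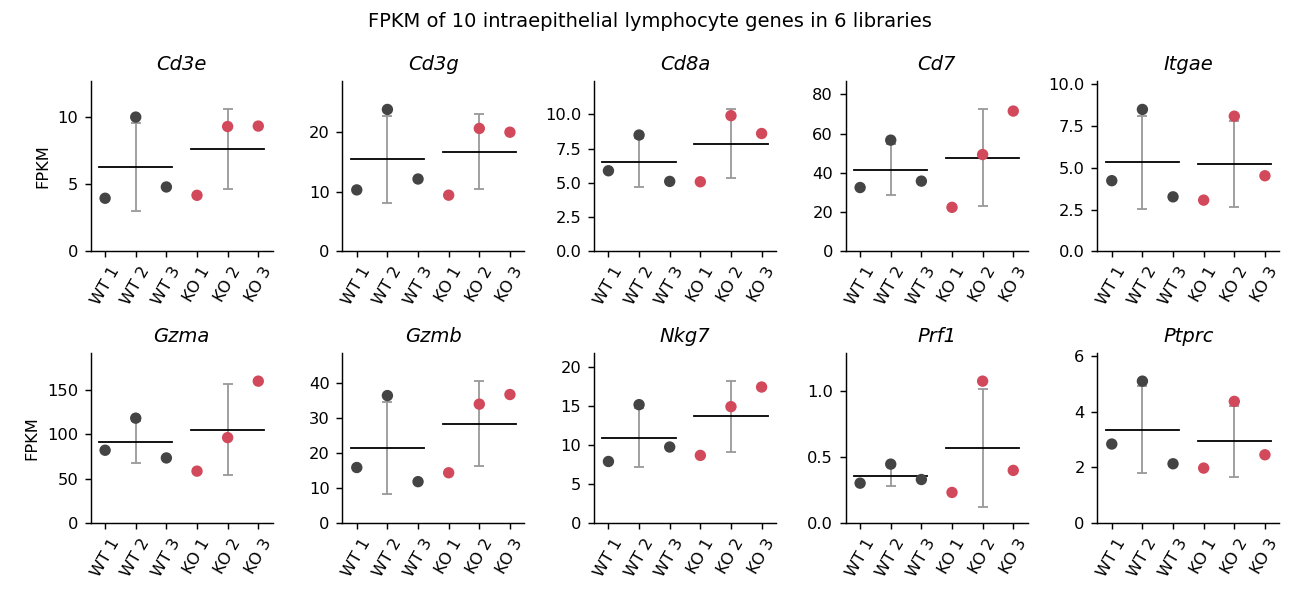
FPKM (linear axis from 0) of the 10 genes in 3 WT libraries (grey points, WT 1 to WT 3) and 3 *Esrra*-/- libraries (red points, KO 1 to KO 3), with the mean of each genotype as a black line and its SD as a grey bar. WT 2, KO 2 and, for most genes, KO 3 are high in both genotypes, and the WT and *Esrra*-/- points overlap for all 10 genes.

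No difference between the genotypes was detectable for any of the 10 genes. In the limma fit over 10596 genes, 0 of the 9 tested members were called in either direction, a call being an unadjusted p under 0.05 with a log2 fold change beyond 0.58, against 4.63% of all genes tested (3.28% lower and 1.35% higher). The count was also 0 at an unadjusted p under 0.05 alone, against 10.8% of all genes, and 0 at an adjusted p under 0.05, which 0.0378% of all genes reached. No other tool was run. The values of the genotypes overlapped for all 10 genes, while those of 17.6% of all genes tested did not. The median log2 fold change was 0.13 over the 9 genes, with 7 above and 2 below 0, and 0.03 over all genes tested. The mice were separate animals, so this spread is that between animals and their preparations. In bulk tissue, fewer cells of a type and less RNA per cell cannot be told apart.

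The fold changes were small and their intervals wide. On the log2(FPKM + 0.1) scale, *Esrra*-/- over WT, that of *Gzmb* was 0.46 (SE 0.49; limma, adjusted p = 0.761), where WT averaged 21.4 ± 13.2 FPKM and *Esrra*-/- 28.4 ± 12.2 FPKM (SD, n = 3 each). This was the widest interval, from 0.621 to 3.05 times the WT level at 95% confidence. *Cd3e* had a log2 fold change of 0.31 (SE 0.42; adjusted p = 0.819), with means of 6.25 ± 3.27 and 7.59 ± 2.96 FPKM, and *Cd3g* one of 0.13 (SE 0.40; adjusted p = 0.927), with means of 15.4 ± 7.30 and 16.6 ± 6.27 FPKM. For *Nkg7* it was 0.31 (SE 0.32; adjusted p = 0.750) and for *Cd8a* 0.25 (SE 0.29; adjusted p = 0.776). The interval of *Cd8a* was the narrowest of the 9, from 0.747 to 1.89 times the WT level. *Cd7* gave 0.09 (SE 0.42), *Gzma* 0.11 (SE 0.36), *Itgae* −0.02 (SE 0.43) and *Ptprc* −0.17 (SE 0.39), with adjusted p from 0.897 to 0.992. *Prf1*, read from the fit with no filter on low values, gave 0.35 (SE 0.48; adjusted p = 0.857). A two-sided exact permutation test of the log2(FPKM + 0.1) values gave p from 0.5 to 1.0 for the 10 genes. The smallest p that 3 against 3 allows is 0.1. A change of more than 3.05 times in either direction lay outside the intervals of all 9 tested genes, while a doubling lay inside those of *Cd3e*, *Cd3g*, *Cd7*, *Gzmb* and *Nkg7*. The lower bounds reached 0.487 times the WT level for *Itgae* and 0.473 times for *Ptprc*.

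**Figure D2:**
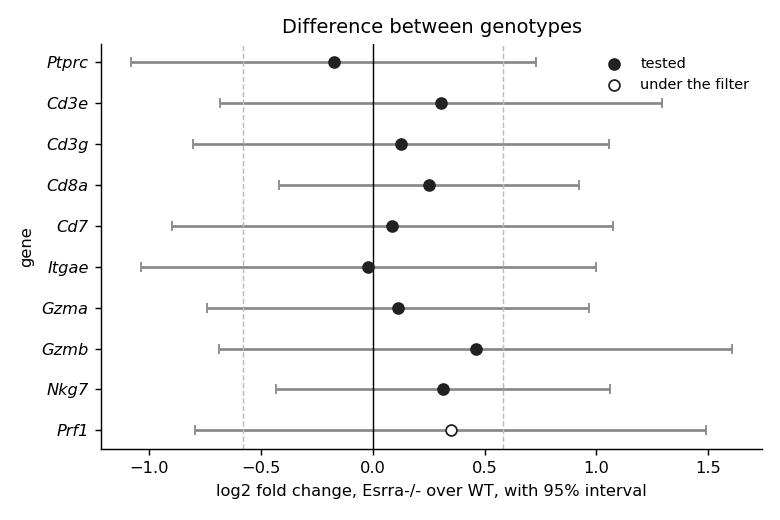
Log2 fold change of FPKM + 0.1, *Esrra*-/- over WT, for each of the 10 genes (points) with the 95% interval of the limma fit (bars). The dashed lines mark 0.58 in either direction. All 10 intervals include 0, and *Prf1* (open point) was under the expression filter and is drawn from the fit with no filter.

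What varied was the library. WT replicate 2 was among the 3 highest libraries for 10 of the 10 genes, *Esrra*-/- replicate 2 for 10 and *Esrra*-/- replicate 3 for 9, the exception being *Ptprc*. *Esrra*-/- replicate 1 was among the 3 lowest for 10 genes and the lowest of all for 7, and WT replicates 1 and 3 were among the 3 lowest for 9 and 10 genes. Averaged over the 10 genes, the deviation of a library from the gene means on the log2(FPKM + 0.1) scale was −0.36, 0.51 and −0.42 in WT and −0.62, 0.52 and 0.37 in *Esrra*-/-. Summed over the 10 genes, the level ran from 128 FPKM in *Esrra*-/- replicate 1 to 331 FPKM in *Esrra*-/- replicate 3. For 8 of the 9 tested members, the 3 highest libraries were exactly WT replicate 2 and *Esrra*-/- replicates 2 and 3. The same 3 were highest for 36 of 84 other tested genes (42.9%) in 7 lists of lymphocyte and leukocyte genes, and for 3.67% of all genes tested. Replicate 2 of WT and of *Esrra*-/- were the 2 highest libraries for 3 of the 9 members, 43 of the 84 genes (51.2%), 18 of 24 in the pan-leukocyte list, and 7.24% of all genes tested. For the order by 3 libraries, among epithelial ligands for lymphocytes it was 2 of 10, in the list of epithelial genes 0 of 20, among B and plasma cell genes 0 of 5, and among genes of macrophages, dendritic cells and granulocytes 0 of 9, lists too short to be set apart from the share over all genes. The libraries in question were of both genotypes, and 2 of the 3 held Y-linked transcripts.

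Within a genotype, the SD of the log2 values was 0.792 for *Gzmb*, 0.694 for *Itgae*, 0.676 for *Cd3e*, 0.673 for *Cd7*, 0.634 for *Cd3g*, 0.598 for *Ptprc*, 0.571 for *Gzma*, 0.501 for *Nkg7* and 0.441 for *Cd8a*. Their median of 0.634 stood beside 0.521 for the 84 other lymphocyte and leukocyte genes and 0.228 for all genes tested. *Gzmb* was more variable than 96.1% of all genes tested and *Cd8a*, the least variable of the 9, than 85.5%. This comparison was not matched on abundance.

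**Figure D3:**
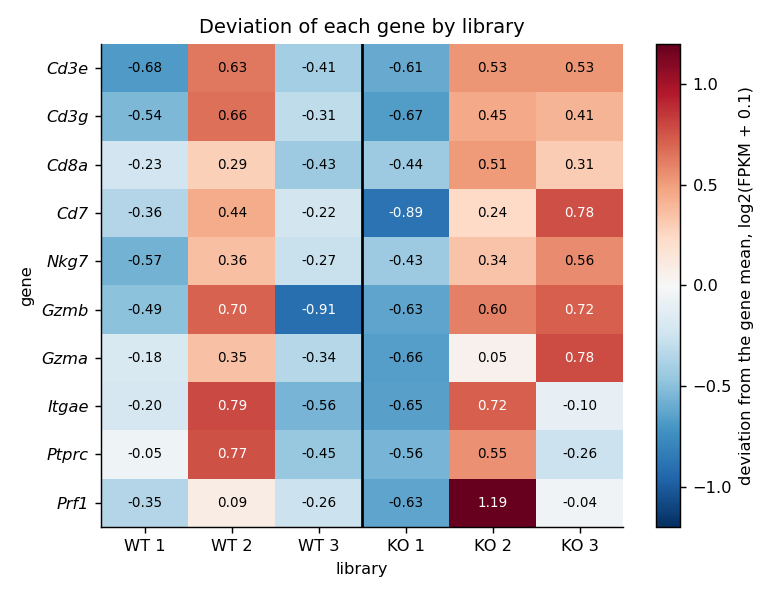
Deviation of log2(FPKM + 0.1) from the mean of each gene (colour and printed value) for the 10 genes (rows) in 3 WT and 3 *Esrra*-/- libraries (columns, KO 1 to KO 3 for *Esrra*-/-; the vertical line divides the genotypes). WT 2 and KO 2 are above the mean for all 10 genes and WT 1, WT 3 and KO 1 below it, while KO 3 runs from 0.78 for *Cd7* and *Gzma* to −0.26 for *Ptprc*.

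Dividing by the CD3 level, the mean FPKM of *Cd3e* and *Cd3g* in the same library, narrowed the spread between libraries for all 8 remaining genes. The *Nkg7* ratio was 1.11, 0.899 and 1.15 in WT and 1.28, 0.998 and 1.19 in *Esrra*-/-, a spread of 1.42 times where the FPKM of *Nkg7* itself spread 2.21 times. *Nkg7* thus kept close to 1 proportion to CD3 in all 6 libraries. The *Cd8a* ratio was 0.827, 0.504 and 0.605 in WT and 0.749, 0.664 and 0.589 in *Esrra*-/-, and that of *Cd7* was 4.57, 3.36 and 4.24 in WT and 3.31, 3.31 and 4.89 in *Esrra*-/-. For *Gzma* it was 11.5, 7.02 and 8.69 in WT and 8.63, 6.46 and 10.9 in *Esrra*-/-, lowest in replicate 2 of each genotype. The *Gzmb* ratio was 2.23, 2.16 and 1.41 in WT and 2.12, 2.28 and 2.52 in *Esrra*-/-, with 5 of the 6 libraries between 2.12 and 2.52 and WT replicate 3 below them. *Itgae* gave 0.595, 0.504 and 0.387 in WT and 0.453, 0.543 and 0.310 in *Esrra*-/-, and *Ptprc* gave 0.399, 0.302 and 0.252 in WT and 0.291, 0.293 and 0.168 in *Esrra*-/-. Both were lowest in *Esrra*-/- replicate 3 and next lowest in WT replicate 3, the same pair whose Y-linked sums were near 0. *Prf1* ranged from 0.026 to 0.072. The ratios of the genotypes overlapped for all 8 genes. With *Cd3d* and *Cd247* added to the reference, those of *Gzmb* did not, at 2.33 to 3.68 in WT and 3.79 to 4.38 in *Esrra*-/-, nor with *Ptprc* as the reference, at 5.57 to 7.16 and 7.30 to 14.99. The difference of mean log2 ratio, *Esrra*-/- minus WT, ran from −0.36 for *Ptprc* to 0.28 for *Gzmb*, and these are descriptions with no test. That of *Ptprc* was −0.10 without *Esrra*-/- replicate 3 and −0.19 without WT replicate 1, and that of *Gzmb* was 0.07 without WT replicate 3.

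**Figure D4:**
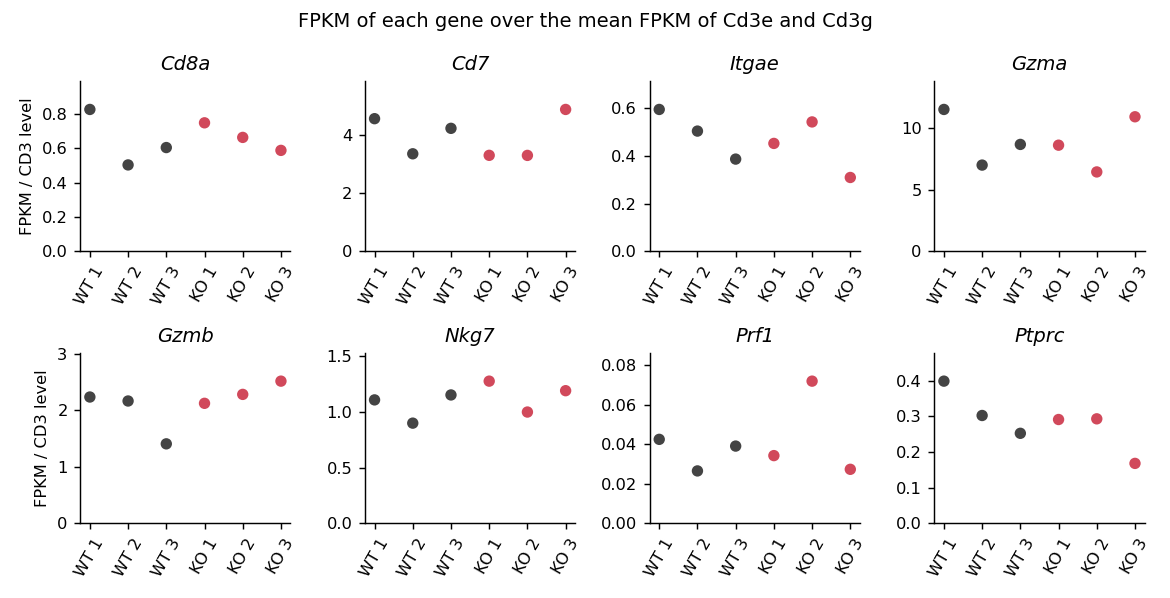
FPKM of 8 genes divided by the mean FPKM of *Cd3e* and *Cd3g* in the same library (linear axes from 0), in 3 WT libraries (grey, WT 1 to WT 3) and 3 *Esrra*-/- libraries (red, KO 1 to KO 3). The points of the genotypes overlap for each gene, and *Itgae* and *Ptprc* are lowest in KO 3.

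Of 4 pairs of partner genes looked at, 1 held a library far from the rest. *Cd8b1*, which encodes the CD8β chain, measured 1.21, 2.29 and 2.16 FPKM in WT and 1.10, 4.98 and 0.152 FPKM in *Esrra*-/-. FPKM of *Cd8a* over that of *Cd8b1* was 4.86, 3.71 and 2.37 in WT and 4.61, 1.99 and 56.8 in *Esrra*-/-, so *Esrra*-/- replicate 3 had *Cd8a* at the high level with almost no *Cd8b1*. *Thy1*, the gene of Thy-1, was also lowest there, with 1.49, 3.37 and 2.47 FPKM in WT and 1.02, 3.83 and 0.884 FPKM in *Esrra*-/-. *Cd6*, an adhesion receptor of conventional T cells, was level there with other low libraries, at 0.682, 1.12 and 0.727 FPKM in WT and 0.668, 2.85 and 0.655 FPKM in *Esrra*-/-. *Cd5* and *Cd2*, receptors of the same cells, were lowest in WT replicate 1, with *Cd5* at 0.328 FPKM there and 0.396 FPKM in *Esrra*-/- replicate 3. *Cd7* and *Gzma* had their highest values in *Esrra*-/- replicate 3. *Esrra*-/- replicate 2, high for the same 10 genes, had the most *Cd8b1*, *Thy1*, *Cd6*, *Cd5* and *Cd2*. It also had the most *Trac*, the constant gene of the TCR α chain, at 64.3 FPKM against 21.6 to 33.4 FPKM in the others, and the most *Igkc*, at 574 FPKM against 71.4 to 120 FPKM. In the fit over all 6 libraries none of these genes was called between the genotypes. The log2 fold change of *Cd8b1* was −0.73 (SE 0.97), from −1.80, past the threshold for a call, without *Esrra*-/- replicate 2 to 0.36 without *Esrra*-/- replicate 3. It was −0.22 with a pseudocount of 1 and −0.45 after quantile normalization. *Trac* became called without *Esrra*-/- replicate 3, at 0.85. The ratio of *Itgae* to *Itgb7*, the β7 chain, was much steadier, from 2.09 to 2.70 in the 6 libraries, and that of *Gzma* to *Gzmb* ran from 2.83 to 6.19.

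In WT replicate 3, levels moved with transcript length. In the fifth of genes with the shortest transcripts (median 1131 bases) the median log2 deviation was 0.23 in that library, and in the fifth with the longest (median 6021 bases) it was −0.19. In the other 5 libraries the medians of both groups lay between −0.10 and 0.08. *Ptprc*, at 5814 bases, and *Itgae*, at 3845 bases, have the longest transcripts of the 10, while those of *Gzma* and *Nkg7* are 878 bases, that of *Cd7* 982 bases and that of *Cd3g* 1023 bases. Removing a straight line on log2 length from each library left 0 of the 9 genes called, with log2 fold changes from −0.24 for *Ptprc* to 0.52 for *Gzmb*.

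In order of mean level over the 6 libraries, *Gzma* (98.2 ± 36.5 FPKM, SD, n = 6) was followed by *Cd7* (44.7 ± 17.9), *Gzmb* (24.9 ± 12.0), *Cd3g* (16.0 ± 6.12), *Nkg7* (12.3 ± 4.01), *Cd8a* (7.19 ± 2.08), *Cd3e* (6.92 ± 2.88), *Itgae* (5.29 ± 2.40) and *Ptprc* (3.15 ± 1.29), all in FPKM, with *Prf1* last. The ranges of neighbours in this order overlapped for each pair but *Ptprc* and *Prf1*. Within libraries the order was firmer. *Gzma* was above *Cd7*, *Cd7* above *Gzmb*, *Cd3g* above *Nkg7*, *Nkg7* above *Cd8a*, *Itgae* above *Ptprc* and *Ptprc* above *Prf1* in 6 of 6 libraries. *Gzmb* was above *Cd3g* in 5, *Cd3e* above *Itgae* in 5 and *Cd8a* above *Cd3e* in 4.

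The genes with the profile most like that of the 10 were then sought. Closeness was measured as the root mean square difference, over the 6 libraries, between the log2 deviations of a gene and the mean deviations of the 10 members, and 10587 tested genes other than the members were ranked. The nearest was *Srgn*, the serglycin proteoglycan that packs granule proteins, at 0.061, with 8.52, 15.3 and 8.89 FPKM in WT and 6.80, 15.3 and 13.7 FPKM in *Esrra*-/-. Among the rest of the nearest 10 were the cortactin-like *Hcls1* (0.112), the protein kinase C gene *Prkch* (0.113), *Coro1a* (0.114), which encodes the leukocyte coronin, and *Rinl* (0.121). *Cd48* (0.121), *Runx3* (0.122), the RUNX factor of CD8 T cells, *Itgb2* (0.132), the β2 integrin chain, and *Cyth4* (0.137) were also among them. The median over all candidates was 0.531 and the size of the member profile itself 0.474. Of the nearest 10 genes, 6 belonged to a lymphocyte or leukocyte list, as did 0.793% of the candidates. The high level of *Esrra*-/- replicate 3, where the median log2 deviation of the members was 0.53, was not found in every list, with 0.07 in the pan-leukocyte list, 0.02 among residence and homing receptors and 0.00 among receptor signalling genes. Measured the same way against the mean of the other members, *Cd3g* was the closest member at 0.123 and *Prf1* the farthest at 0.411, with *Cd8a* at 0.144, *Cd3e* at 0.172 and *Nkg7* at 0.196. The points share library, dissection and depth, and this closeness is a description.

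The other genes of these cells were read in the same fit. In 7 lists of lymphocyte and leukocyte genes, 84 genes other than the members were tested. Of these, 1 was called lower and 0 higher, beside 3.28% and 1.35% of all genes tested, with a median log2 fold change of −0.00 and 42 genes on either side of 0. The only gene called was *Tcf7*, a transcription factor of naive and memory T cells, with 2.0, 3.03 and 2.88 FPKM in WT and 1.35, 2.32 and 0.895 FPKM in *Esrra*-/-. Its log2 fold change was −0.83 (SE 0.35; limma, adjusted p = 0.458) and the genotypes overlapped. The call was lost without WT replicate 2 (−0.72), WT replicate 3 (−0.76), *Esrra*-/- replicate 1 (−0.80) or *Esrra*-/- replicate 3 (−0.53), and under 5 of the other alternatives. *Esrra*-/- replicate 3, in which *Cd8b1* and *Thy1* were lowest, was also the lowest for *Tcf7*.

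By role, 0 of 16 tested genes of the T cell receptor and its co-receptors were called (median log2 fold change 0.08), where *Trac* was at 0.57 (SE 0.33; adjusted p = 0.568) and *Trbc2*, the constant gene of the β chain, at −0.04 (SE 0.40). Of the receptor's signalling genes, 0 of 14 were called, with the phosphatase gene *Ptpn6* at 0.21, *Nfatc3* at 0.18 and *Ptpn22* at 0.12. Among the cytotoxic granule and death ligand genes it was 0 of 12. In that list the T cell chemokine *Ccl5* measured 86.0, 202 and 101 FPKM in WT and 58.6, 168 and 155 FPKM in *Esrra*-/- (log2 fold change −0.07, SE 0.47), high in the same 3 libraries as the members, and *Stxbp2*, which acts in granule release, was at 0.22. Of the other granzyme genes, *Gzmd*, *Gzme*, *Gzmf* and *Gzmg*, were listed at 0 in all 6 libraries. Natural killer receptors gave 0 of 6, with the adaptor genes *Fcer1g* at −0.13 and *Tyrobp* at −0.08 and the receptor gene *Klrd1* at −0.18. Residence and homing receptors gave 0 of 10, with *Selplg*, the selectin ligand PSGL-1, at 0.04 and *Ahr*, the aryl hydrocarbon receptor that sustains intraepithelial lymphocytes, at 0.19. Of the transcription factors and cytokine receptors, 1 of 11 was called (*Tcf7*), *Id2* was at 0.22, and the interferon γ receptor gene *Ifngr1*, also made by epithelium, measured 51.2, 63.1 and 56.8 FPKM in WT and 64.3, 75.3 and 73.1 FPKM in *Esrra*-/- (log2 fold change 0.32, SE 0.14; adjusted p = 0.480). Its values did not overlap, as for 17.6% of all genes tested and 2 of the 84. The other was *Vav1*, a signalling gene of the receptor, which went the other way, with 2.2, 3.02 and 2.09 FPKM in WT and 1.28, 1.91 and 1.87 FPKM in *Esrra*-/- (log2 fold change −0.51, SE 0.25; adjusted p = 0.508). In the pan-leukocyte list 0 of 25 were called, the median was −0.13, and *Cd52* was at −0.23, *Gimap4* at −0.21 and *Wipf1* at 0.28.

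Of 16 genes for molecules by which the epithelium attracts, feeds or engages these lymphocytes, 10 passed the expression filter and 0 were called (median log2 fold change 0.08). *Ccl25*, the chemokine that draws gut-homing T cells, measured 398, 354 and 583 FPKM in WT and 412, 358 and 549 FPKM in *Esrra*-/- (log2 fold change −0.00, SE 0.26). The cytokine gene *Il18* was at 0.12 and *Cdh1*, which encodes the E-cadherin that integrin αEβ7 binds, at 0.09. *Il15*, the survival factor of intraepithelial lymphocytes, measured 8.72, 9.67 and 16.9 FPKM in WT and 11.2, 9.58 and 15.4 FPKM in *Esrra*-/- (log2 fold change 0.07, SE 0.28), highest in WT replicate 3 and *Esrra*-/- replicate 3. *H2-T3*, the thymic leukaemia antigen bound by CD8α homodimers, gave 0.30 (SE 0.20; adjusted p = 0.613). *Btnl6*, a butyrophilin-like gene of the family that selects γδ T cells in the gut, varied widely, with 79.1, 125 and 60.6 FPKM in WT and 24.6, 19.9 and 114 FPKM in *Esrra*-/-. Its log2 fold change was −1.14 (SE 0.64; limma, adjusted p = 0.561) and became −1.92 (adjusted p = 0.203), past the threshold for a call, without *Esrra*-/- replicate 3, which lay within the WT range. It was −0.66 without *Esrra*-/- replicate 2, −0.82 without *Esrra*-/- replicate 1 and −0.85 without WT replicate 2. *Btnl6* has close relatives among which reads can be divided, so its level is uncertain. *Btnl2* measured 101.8, 84.6 and 98.7 FPKM in WT and 108.8, 111 and 114 FPKM in *Esrra*-/- (log2 fold change 0.23, SE 0.14; adjusted p = 0.574), with no overlap between the genotypes.

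Genes of other cells in the fraction were read beside these. Of 9 tested genes of macrophages, dendritic cells and granulocytes, 2 were called lower and 0 higher, both proteases of mucosal mast cells, which also lie within the epithelium. *Mcpt1* measured 26.4, 12.6 and 3.75 FPKM in WT and 1.94, 1.73 and 1.63 FPKM in *Esrra*-/- (log2 fold change −2.55, SE 0.61; limma, adjusted p = 0.289). *Mcpt2* measured 10.9, 5.40 and 3.39 FPKM in WT and 0.624, 0.898 and 0.716 FPKM in *Esrra*-/- (log2 fold change −2.83, SE 0.41; adjusted p = 0.0918). For both genes every WT value was above every *Esrra*-/- value, and neither passed an adjusted p of 0.05 in this fit. Without WT replicate 1 the log2 fold change of *Mcpt1* was −1.91, and without WT replicate 3 it was −3.30. *Mcpt1* and *Mcpt2* are near copies of each other, so reads may be divided between them, and their WT values did not follow the order of the lymphocyte genes, being highest in WT replicate 1. *Itgam*, the αM integrin chain, was at 0.42 (SE 0.18; adjusted p = 0.458). Of B and plasma cell genes 0 of 5 were called, with *Igkc* at 0.72 (SE 0.72), *Cd38* at 0.05 and *Sdc1* at 0.01. Of 20 epithelial genes 0 were called, with the apolipoprotein genes *Apoa4* and *Apoa1* at 0.42 and 0.48 and *Fabp1* at 0.14, and of 3 tested mesenchymal and endothelial genes 0, with *Tagln* at 0.28, *Vim* at −0.27 and *Lyve1* at 0.21.

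**Figure D5:**
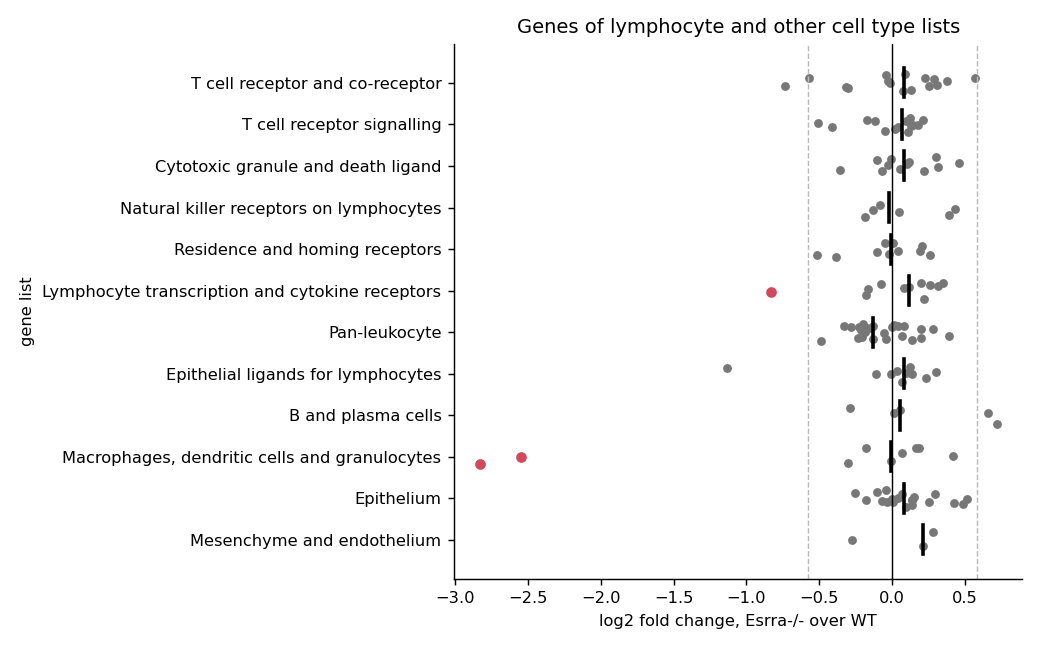
Log2 fold change of FPKM + 0.1, *Esrra*-/- over WT, of each tested gene in 12 lists (grey points, members included), with the median of the list as a black tick and genes called at an unadjusted p under 0.05 beyond 0.58 (dashed lines) in red. The lists lie around 0, and the 3 called genes are *Tcf7*, *Mcpt1* and *Mcpt2*.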

How the data were processed

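Duodenal epithelium of 3 WT and 3 *Esrra*-/- mice was sequenced from libraries that do not keep strand. The authors checked reads with FastQC 0.11.3, quantified them with kallisto 2.1.0 against mm9 and deposited FPKM values from DESeq2 2.2.1, tools and versions as the submitters' processing notes name them. The annotation is not given in the sources used here. A second table with the authors' own comparison (mean normalized counts, log2 fold changes, their errors and p-values) was not used. FPKM values keep no depth, and the precision of each value is unknown. Among low values, the most common ratio of FPKM to that of WT replicate 1 was 0.973 to 1.21 in the 5 other libraries. This is a ratio of FPKM values and not of depth, and the bin that gave it held 10.1% to 20.3% of the genes compared.

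Here, log2(FPKM + 0.1) of genes with a mean FPKM above 1 was tested with limma 3.58.1 in R 4.3.3 (lmFit, eBayes with a trend, no covariate) and Benjamini-Hochberg adjustment over all genes tested. Scripts were run in Python 3.11.15 with pandas 2.3.3 and tested on simulated data. A fold change on this scale understates the change of low genes. The members and lists were chosen with earlier results of these data known. Genes named are the members, *Esrra*, the 3 most abundant and the called genes of each list, the 10 nearest profiles and 4 Y-linked genes as a sum, and a few that this rule gives are not reported here. All others (*Epcam*, *Vil1*, *Ms4a1*, *Cd4*, *Foxp3*, *Ncr1*, *S100a8*, *Col1a1*, *Cdh5*, *Cd3d*, *Cd8b1*, *Thy1*, *Cd6*, *Cd5*, *Cd2*, *Cd247*, *Vav1*, *Itgb7*, *Gzmd* to *Gzmg*, *Il15*, *H2-T3*, *Btnl2* and *Btnl6*) were chosen after their values were seen. Gene positions and longest transcripts came from GENCODE M1 on mm9.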

Additional observations from a re-analysis of the deposited data

How the results depend on the processing

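With 15 alternatives to the fit, 0 of 135 values of the 9 tested members were called, the lowest p was 0.0626 and the lowest adjusted p 0.383 (limma). Of these values 121 kept their direction and 14 reversed it. Leaving out 1 library at a time, the log2 fold change ran from −0.11 to 0.49 for *Cd3g*, from −0.28 to 0.55 for *Cd7*, from −0.25 to 0.47 for *Gzma*, from −0.39 to 0.37 for *Itgae* and from −0.49 to 0.17 for *Ptprc*, and, keeping its direction, from 0.04 to 0.70 for *Cd3e*, from 0.06 to 0.53 for *Cd8a*, from 0.12 to 0.93 for *Gzmb* and from 0.11 to 0.61 for *Nkg7*. *Itgae* was also at 0.006 after quantile normalization. Over all genes, the 348 lower and 143 higher calls became 2 and 2 at an adjusted p under 0.05, 528 and 277 with no filter on low values, and 252 to 533 and 143 to 214 with 1 library left out, the most lower calls being without *Esrra*-/- replicate 2. In the other lists, 3 lower and 0 higher calls became 1 lower with FPKM above 1 in all 6 libraries, 0 lower at an adjusted p under 0.05, and 1 higher with no filter and with quantile normalization. With 1 library left out they were 2 to 6 lower and 0 to 1 higher, and the 6 were without *Esrra*-/- replicate 2, when *Cd8b1* and *Thy1* were among those called. The medians of the lists moved too, from −0.28 to 0.21 for pan-leukocyte genes and from −0.09 to 0.51 for T cell receptor and co-receptor genes, and 11 of the 12 medians took both signs, all but that of mesenchyme and endothelium. The calls of *Mcpt1* and *Mcpt2* held in every alternative that tested them at the unadjusted threshold. The log2 fold change of *Mcpt1* ran from −3.30 without WT replicate 3 to −1.91 without WT replicate 1. That of *Mcpt2* ran from −3.22 without WT replicate 3 to −1.99 with a pseudocount of 1, and was −2.39 without WT replicate 1. *Mcpt2* reached an adjusted p of 0.0495 with Y-linked transcripts as a factor. The adjusted p of *Esrra* was 0.0709 with a replicate block, 0.148 and 0.107 without *Esrra*-/- replicates 1 and 3, and 0.185 and 0.0772 without WT replicates 2 and 3. With *Ptprc* in place of CD3 as the reference, the difference of mean log2 ratio became 0.43 for *Cd8a*, 0.64 for *Gzmb*, 0.50 for *Nkg7* and 0.57 for *Prf1*, and turned direction for *Cd7* (−0.09 to 0.27), *Gzma* (−0.07 to 0.29) and *Itgae* (−0.20 to 0.16). With 1 library left out, the CD3 ratio differences ran from −0.52 to −0.10 for *Ptprc* and from 0.07 to 0.40 for *Gzmb*. With *Ptprc* as reference every gene moved by the same amount, the *Ptprc* to CD3 difference, which the change of reference sets. The cause of the other changes was not tested.

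The replicate numbers of the genotypes were not taken to pair the mice in the main fit. Deviations of same-numbered libraries correlated at 0.0116, 0.263 and 0.376. For replicates 2 and 3 no other pairing was higher. WT replicate 3 with *Esrra*-/- replicate 2 gave −0.366, and WT replicate 2 with *Esrra*-/- replicate 3 gave −0.273. *Esrra*-/- replicate 1 was near 0 with WT replicates 1 (0.0116) and 2 (0.0276). Being mixed, these values do not decide whether the numbers pair the mice. With a replicate block, 441 genes were lower, 192 higher and 0 members called. The block lowered the SE of *Ptprc* from 0.386 to 0.177 and that of *Itgae* from 0.434 to 0.194, but that of *Gzma* only from 0.365 to 0.330.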
